A study of Mus musculus with 16 samples.

Results

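The metabolic nuclear receptors of the liver were followed through mouse hepatocytes cultured with and without cancer cells. They were taken by gene name as 10 genes (Nr1h4, Nr0b2, Ppara, Ppard, Pparg, Rxra, Nr1h3, Nr1i2, Nr1i3 and Nr3c1) out of the 54532 genes measured by RNA sequencing, and all 10 were found in the table. The 16 libraries fall into 5 groups. The KO co-culture with CXCR2i (n = 4) held hepatocytes, cancer cells lacking Phgdh and a CXCR2 inhibitor. The WT co-culture with CXCR2i (n = 3) held the same inhibitor with cancer cells wild type for Phgdh. The KO co-culture (n = 3) and the WT co-culture (n = 3) lacked the inhibitor, and the last group was hepatocytes alone (n = 3). Phgdh encodes the enzyme that opens the serine synthesis pathway, and CXCR2 is a receptor for neutrophil-attracting chemokines. All sample labels give hepatocytes, entered as a cell line, as the RNA source, whereas the series' design text speaks of HY19636 cancer cells as the material sequenced; the labels were followed. No vehicle, dose, duration or batch is given, no hepatocytes received the inhibitor without cancer cells, and whether replicates came from separate cultures is not stated; p-values here reflect library-to-library spread, which may be technical.

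Nuclear receptors are transcription factors switched by small lipophilic ligands. In the liver they sense bile acids, fatty acids, oxysterols, foreign chemicals and glucocorticoids, and most of those studied here bind DNA as a pair with the retinoid X receptor. Nr1h4 encodes the bile acid receptor FXR, and Nr0b2 encodes SHP, a receptor without a DNA-binding domain that FXR is known to induce and that represses other receptors.

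The libraries held 16.1 to 21.3 M fragments in the KO co-culture with CXCR2i, 15 to 17.1 M in the WT co-culture with CXCR2i, 18.1 to 21.2 M in the KO co-culture, 16.2 to 20.9 M in the WT co-culture and 16.4 to 21.02 M in hepatocytes alone. Values are FPKM (fragments per kilobase of gene and per M fragments) as deposited, and ± gives the SD after a mean FPKM and the SE after a log2 fold change, which was taken on FPKM + 1. A call is an adjusted p under 0.05 from limma, over 11395 genes with a mean of at least 1 FPKM. Of the 10 receptors, 9 passed that filter and Nr1i3 did not. Nr0b2 passed it only through the groups with the inhibitor, with a mean of 0.111 FPKM over the 9 libraries without it, and a gene that passes through its high groups is bound to differ. Phgdh itself stood at 152 ± 5.6 FPKM in the KO co-culture with CXCR2i, 158 ± 2.7 in the WT co-culture with CXCR2i, 197 ± 3.8 in the KO co-culture, 200 ± 5.8 in the WT co-culture and 206 ± 2.3 in hepatocytes alone. If the RNA is from hepatocytes, as labelled, these values do not check a deletion made in the cancer cells; if it is from the cancer cells, as the design text has it, the KO and WT levels show no loss of the Phgdh transcript.

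The summed FPKM of 10 hepatocyte markers was 930 to 984 in the KO co-culture with CXCR2i, 714 to 731 in the WT co-culture with CXCR2i, 147 to 151 in the KO co-culture, 124 to 129 in the WT co-culture and 246 to 253 in hepatocytes alone, with Cyp2e1 and Asgr1 near 0 throughout. For 10 markers of pancreatic cancer epithelium the sums were 646 to 671, 672 to 716, 261 to 278, 266 to 292 and 357 to 372 in the same order of groups. Of these, Epcam, Muc1, Pdx1 and Cldn18 failed the filter and Tff1 was listed at 0 in every library. Krt19 stood at 195 ± 8.1 FPKM in the KO and 193 ± 11.6 in the WT co-culture with CXCR2i. It had 23.5 ± 3.04 in the KO co-culture, 21.97 ± 3.97 in the WT co-culture and 96.9 ± 2.6 in hepatocytes alone. In the same order, Krt7 had 7.63 ± 0.57, 7.86 ± 0.31, 0.551 ± 0.13, 0.580 ± 0.065 and 4.26 ± 0.099 FPKM. Msln, the largest part of the sums, had 365 ± 7.6, 406 ± 13.4, 175 ± 5.5, 196 ± 11.5 and 201 ± 6.2. Sox9 had 64.9 ± 2.6, 55.7 ± 0.89, 49.8 ± 0.96, 43.2 ± 2.6 and 45.2 ± 3.4. Onecut2 had 24.2 ± 1.2, 24.8 ± 0.53, 19.3 ± 1.03, 17.8 ± 1.9 and 15.9 ± 0.66. Markers of stellate and endothelial cells and neutrophils summed to at most 0.422 FPKM in any library. Of 8 macrophage markers, Adgre1, Clec4f and Tyrobp were at 0 everywhere and only Cd14 and Cd68 passed the filter. Cd14 stood at 104 ± 0.95 FPKM in the KO co-culture with CXCR2i, 98.7 ± 0.82 in the WT co-culture with CXCR2i, 44.6 ± 0.69 in the KO co-culture, 44.97 ± 3.1 in the WT co-culture and 115 ± 2.2 in hepatocytes alone, and Cd68 at 4.28 ± 0.34, 4.96 ± 0.71, 1.03 ± 0.18, 1.34 ± 0.15 and 0.690 ± 0.45 in the same order. The 8 hepatocyte, 5 epithelial and 2 macrophage markers that were tested rose with the inhibitor in both co-cultures, as most receptors did. Of all genes tested, 34.8% (KO) and 33.5% (WT) rose. Fabp1 and Tat, among the 8, reached the filter only through the inhibitor groups. The epithelial markers that failed the filter did not all rise. Epcam had 0.0712 (KO) and 0.169 (WT) FPKM without the inhibitor, and 0.00738 and 0 with it. The macrophage markers Ptprc, Csf1r and Lyz2 had group means of at most 0.112 FPKM. The part of all these markers in the receptors' differences was not tested. In bulk RNA, fewer cells of a type and less RNA per cell cannot be told apart.

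Upstream sequence of the receptors is shown because 7 of the 9 tested rose together with the inhibitor and 1 fell. RefSeq (GRCm38.p6) gave 13 windows of 250 bases before a transcription start for 9 receptors, and 7 windows of 6 receptors overlapped no annotated exon. Shown are those of Nr0b2, Nr1h4, Nr1i2 and Rxra, which rose, and of Pparg, which fell. Values per gene do not tell which transcription start was used, so a printed window need not be the one in use. Capitals mark any match, on either strand, to AGGTCA (the hexamer bound by most non-steroid receptors), AGAACA (bound by the glucocorticoid receptor), TCAAGG (the core bound by NR5A receptors), CACGTG (the E-box) or GGGCGG (the GC box).
Nr0b2: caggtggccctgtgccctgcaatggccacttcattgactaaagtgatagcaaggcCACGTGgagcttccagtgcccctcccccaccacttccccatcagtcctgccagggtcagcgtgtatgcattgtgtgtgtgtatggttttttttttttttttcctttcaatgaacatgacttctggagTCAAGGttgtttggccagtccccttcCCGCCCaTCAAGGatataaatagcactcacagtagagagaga
Nr1h4: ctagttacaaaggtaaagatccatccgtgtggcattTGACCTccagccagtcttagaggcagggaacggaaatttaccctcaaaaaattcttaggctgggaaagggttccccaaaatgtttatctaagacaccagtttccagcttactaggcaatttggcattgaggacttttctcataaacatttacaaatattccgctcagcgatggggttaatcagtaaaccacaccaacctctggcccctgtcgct
Nr1i2: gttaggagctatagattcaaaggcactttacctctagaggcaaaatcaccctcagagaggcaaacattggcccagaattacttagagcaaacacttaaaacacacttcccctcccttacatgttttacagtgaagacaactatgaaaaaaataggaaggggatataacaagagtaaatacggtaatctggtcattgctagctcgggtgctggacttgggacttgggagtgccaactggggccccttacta
Rxra: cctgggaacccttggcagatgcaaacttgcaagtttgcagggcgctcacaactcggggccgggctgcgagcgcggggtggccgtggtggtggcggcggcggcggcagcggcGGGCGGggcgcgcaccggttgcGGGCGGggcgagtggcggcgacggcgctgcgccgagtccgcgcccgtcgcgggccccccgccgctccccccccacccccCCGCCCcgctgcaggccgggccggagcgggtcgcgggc
Pparg: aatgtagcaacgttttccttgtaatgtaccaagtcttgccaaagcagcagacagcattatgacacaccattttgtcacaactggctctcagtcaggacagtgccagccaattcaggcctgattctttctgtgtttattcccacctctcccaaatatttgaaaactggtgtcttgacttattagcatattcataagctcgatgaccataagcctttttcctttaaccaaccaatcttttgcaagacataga

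These windows lie at chr4:133553126-133553375 on the plus strand (Nr0b2), chr10:89506659-89506908 on the minus strand (Nr1h4), chr16:38294825-38295074 on the minus strand (Nr1i2), chr2:27676951-27677200 on the plus strand (Rxra, the 5′-most start) and chr6:115421816-115422065 on the plus strand (Pparg, the 3′-most start). The Nr0b2 and Nr1i2 windows lie just outside the deposited gene spans, chr4:133553376-133556536 and chr16:38248323-38294824, whereas the Nr1h4 window lies within the span chr10:89454234-89533585, and those of Rxra and Pparg within chr2:27676440-27762957 and chr6:115360951-115490399. In Nr0b2, 2 TCAAGG matches began 68 and 35 bases before the start, with an E-box at 195 and a GC box on the other strand at 42 bases. Nr1h4 held 1 AGGTCA match on the other strand, 214 bases before its start. This Rxra window held 3 GC boxes, and the window of the other Rxra start, also free of exons but not printed, held 2 AGGTCA matches and no GC box. Nr1i2 and this Pparg window held none of the 5 motifs, while each of the other 2 Pparg windows, which overlap exons, held 1 AGGTCA match. Of 32851 mouse promoter windows of the same length, 14% held AGGTCA, 16.1% AGAACA, 12.5% TCAAGG, 6.02% CACGTG and 32.7% GGGCGG, with no allowance for base composition. GC content was 44% in Nr1i2, 44.4% in Nr1h4, 50% in Nr0b2, 81.2% in Rxra and 40.8% in Pparg, against a median of 52.4% over all windows. A match is a run of letters and not a site shown to be bound.

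With the inhibitor, 7 receptors rose, Pparg fell and Nr1h3 did not pass in either co-culture. In the KO co-culture, 8 of 9 tested receptors were called against 69.5% of all genes tested, 7 higher (34.8% of all genes) and 1 lower (34.7%). In the WT co-culture, 8 of 9 were called against 66.6% of all genes, again 7 higher (33.5%) and 1 lower (33%). With so few receptors, 8 of 9 is not far from those shares. Nr0b2, among the 7, reached the filter only through the inhibitor groups, as 3.26% of all genes tested did. Its rise was thus not open and adds nothing to the comparison with those shares. With Nr0b2 included, the receptors' median log2 fold change was 0.81 in the KO co-culture and 0.64 in the WT co-culture. For all genes tested it was -0.01 in both.

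**Figure D1:**
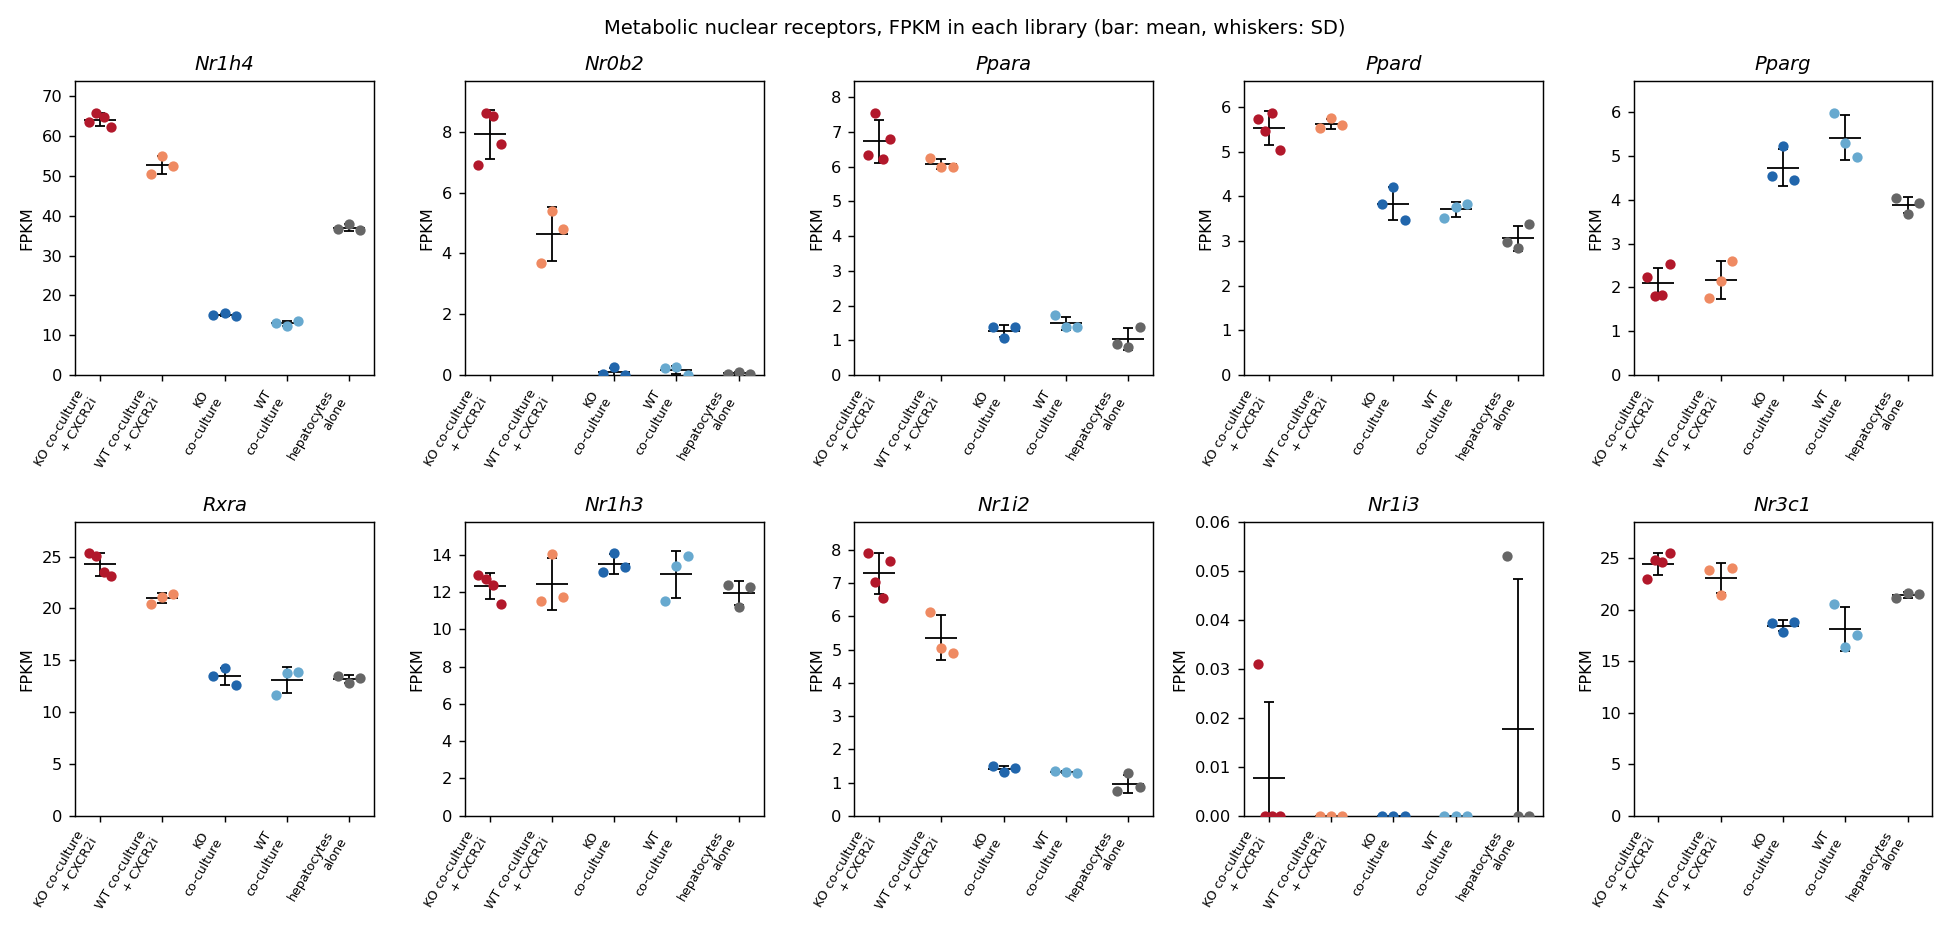
FPKM (vertical axes, each from 0) of the 10 receptors in each of the 16 libraries; points are libraries, bars are group means and whiskers SD. The 7 libraries with the inhibitor lie above the 9 others for Nr0b2, Ppara, Ppard, Rxra, Nr1i2 and Nr1h4, and below them for Pparg; in Nr1i3 only 2 libraries are above 0.

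The bile acid receptor gene Nr1h4 was the highest of the 10 in both groups with the inhibitor and in hepatocytes alone. It had 63.4, 65.9, 64.8 and 62.2 FPKM in the KO co-culture with CXCR2i, and 15.1, 15.5 and 14.8 FPKM in the KO co-culture. It had 50.4, 54.9 and 52.5 FPKM in the WT co-culture with CXCR2i, and 13.1, 12.2 and 13.6 FPKM in the WT co-culture. Hepatocytes alone gave 36.6, 37.96 and 36.4 FPKM. All 5 groups were separate, with the highest values under the inhibitor, intermediate ones in hepatocytes alone and the lowest in the co-cultures without inhibitor. With the inhibitor Nr1h4 rose 4.24-fold in the KO co-culture (log2 fold change 2.01 ± 0.04, adjusted p = 1.07e-14, limma) and 4.06-fold in the WT co-culture (1.94 ± 0.04, adjusted p = 3.68e-14). Without it, Nr1h4 was 2.45-fold lower in the KO co-culture than in hepatocytes alone (log2 fold change -1.24 ± 0.04, adjusted p = 4.61e-12) and 2.85-fold lower in the WT co-culture (-1.44 ± 0.04, adjusted p = 8.57e-13). The inhibitor groups also exceeded hepatocytes alone, by 0.78 ± 0.04 (KO, adjusted p = 3.61e-10) and 0.50 ± 0.04 (WT, adjusted p = 1.34e-07) on the log2 scale.

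Nr0b2, the gene for SHP, was at the floor of detection without the inhibitor. It had 6.91, 8.63, 8.51 and 7.61 FPKM in the KO co-culture with CXCR2i, and 0.0435, 0.251 and 0 FPKM in the KO co-culture. It had 3.67, 5.41 and 4.81 FPKM in the WT co-culture with CXCR2i, and 0.219, 0.280 and 0 FPKM in the WT co-culture. Hepatocytes alone gave 0.0517, 0.111 and 0.0432 FPKM. Libraries with the inhibitor did not overlap any of the others, and the 9 others overlapped each other. In fragments, the KO co-culture with CXCR2i held 719 and the KO co-culture 7, a depth-scaled ratio of 78.5 (95% interval 37.9 to 196); the WT co-culture with CXCR2i held 260 and the WT co-culture 10, a ratio of 30.1 (16.1 to 63.5). These intervals cover counting error only. On the log2(FPKM + 1) scale, which understates the change of low genes, the fold changes were 3.02 ± 0.12 (limma, adjusted p = 1.6e-11) and 2.27 ± 0.13 (adjusted p = 9.87e-10). Since Nr0b2 reached the filter only through the inhibitor groups, these 2 p-values are given as a description. Neither co-culture without inhibitor differed detectably from hepatocytes alone, where 4 fragments were counted in all (adjusted p = 0.838 for KO and 0.442 for WT).

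Ppara, the receptor for fatty acids that drives their oxidation in liver, had 6.34, 7.56, 6.21 and 6.80 FPKM in the KO co-culture with CXCR2i, and 1.37, 1.07 and 1.39 FPKM in the KO co-culture. It had 6.24, 5.98 and 5.995 FPKM in the WT co-culture with CXCR2i, and 1.72, 1.39 and 1.38 FPKM in the WT co-culture. Hepatocytes alone gave 0.901, 0.817 and 1.39 FPKM. Both inhibitor groups were thus high and overlapped each other, and all other libraries were low. Ppara rose 5.26-fold with the inhibitor in the KO co-culture (log2 fold change 1.76 ± 0.09, adjusted p = 4.19e-10) and 4.06-fold in the WT co-culture (1.51 ± 0.10, adjusted p = 6.13e-09). Against hepatocytes alone, the WT co-culture was higher by 0.30 ± 0.10 (adjusted p = 0.0177), a call lost without WT replicate 1 (adjusted p = 0.0721) and without hepatocytes-alone replicate 1 (0.0669) or 2 (0.0866), and when only the libraries compared were fitted (0.0824); the groups overlapped. In the KO co-culture the same difference was 0.17 ± 0.10 and did not pass (adjusted p = 0.159; 0.0133 without hepatocytes-alone replicate 3).

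Ppard, a fatty acid receptor found in most tissues, had 5.74, 5.47, 5.88 and 5.03 FPKM in the KO co-culture with CXCR2i, and 3.83, 4.21 and 3.47 FPKM in the KO co-culture. It had 5.54, 5.75 and 5.59 FPKM in the WT co-culture with CXCR2i, and 3.52, 3.76 and 3.84 FPKM in the WT co-culture. Hepatocytes alone had the lowest values, 2.97, 2.84 and 3.38 FPKM. The KO and WT groups overlapped at each inhibitor state, while inhibitor and no-inhibitor groups did not. The rise with the inhibitor was 1.44-fold in the KO co-culture (log2 fold change 0.43 ± 0.06, adjusted p = 2.52e-05) and 1.52-fold in the WT co-culture (0.49 ± 0.07, adjusted p = 1.48e-05). Without inhibitor it was higher than in hepatocytes alone by 0.25 ± 0.07 in the KO co-culture (adjusted p = 0.00512) and by 0.21 ± 0.07 in the WT co-culture (adjusted p = 0.0133; 0.0603 without hepatocytes-alone replicate 2).

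Pparg, the fat-storage receptor best known from adipocytes, moved the other way. It had 2.23, 1.82, 1.82 and 2.53 FPKM in the KO co-culture with CXCR2i, and 4.54, 5.23 and 4.44 FPKM in the KO co-culture. It had 1.75, 2.15 and 2.61 FPKM in the WT co-culture with CXCR2i, and 5.99, 5.29 and 4.98 FPKM in the WT co-culture. Hepatocytes alone lay between, at 4.05, 3.67 and 3.92 FPKM. Every library with the inhibitor was below every library without it. Pparg was 2.26-fold lower with the inhibitor in the KO co-culture (log2 fold change -0.89 ± 0.10, adjusted p = 1.64e-06) and 2.5-fold lower in the WT co-culture (-1.02 ± 0.11, adjusted p = 8.78e-07). It was also lower than in hepatocytes alone, by -0.66 ± 0.10 (KO with CXCR2i, adjusted p = 3.46e-05) and -0.63 ± 0.11 (WT with CXCR2i, adjusted p = 0.000115) on the log2 scale. Without inhibitor, the WT co-culture exceeded hepatocytes alone by 0.39 ± 0.11 (adjusted p = 0.00522), and for the KO co-culture the difference was 0.23 ± 0.11 (adjusted p = 0.0742), which passed when only the libraries compared were fitted (0.0265) and under 3 other settings.

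Rxra encodes the retinoid X receptor alpha, a partner with which FXR, the PPARs, LXR, PXR and CAR bind DNA. It had 25.3, 25.1, 23.5 and 23.1 FPKM in the KO co-culture with CXCR2i, and 13.5, 14.3 and 12.6 FPKM in the KO co-culture. It had 20.45, 21.1 and 21.4 FPKM in the WT co-culture with CXCR2i, and 11.7, 13.8 and 13.9 FPKM in the WT co-culture. Hepatocytes alone gave 13.5, 12.8 and 13.3 FPKM. The inhibitor groups stood apart from the rest and from each other, and the 3 groups without inhibitor overlapped. Rxra rose 1.8-fold with the inhibitor in the KO co-culture (log2 fold change 0.81 ± 0.06, adjusted p = 1.25e-08) and 1.6-fold in the WT co-culture (0.64 ± 0.06, adjusted p = 3.65e-07). Without inhibitor it did not pass against hepatocytes alone, at 0.03 ± 0.06 for KO (95% interval -0.11 to 0.16, adjusted p = 0.739) and -0.01 ± 0.06 for WT (-0.15 to 0.12, adjusted p = 0.876).

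Nr1h3, the gene for the oxysterol receptor LXR alpha, had 12.9, 12.7, 12.4 and 11.3 FPKM in the KO co-culture with CXCR2i, and 13.1, 14.1 and 13.3 FPKM in the KO co-culture. It had 11.5, 14.0 and 11.7 FPKM in the WT co-culture with CXCR2i, and 11.5, 13.4 and 13.9 FPKM in the WT co-culture. Hepatocytes alone gave 12.4, 11.2 and 12.3 FPKM. Group means spanned only 11.9 to 13.5 FPKM and neighbouring groups in that order overlapped, although the KO co-culture with CXCR2i lay just below the KO co-culture. Its fold change with the inhibitor was -0.12 ± 0.07 in the KO co-culture (adjusted p = 0.158) and -0.05 ± 0.08 in the WT co-culture (adjusted p = 0.555). The KO co-culture did not pass against hepatocytes alone (0.16 ± 0.08, adjusted p = 0.0864), but was called higher when only the libraries compared were fitted (0.0347), under quantile normalization (0.0385), after rescaling without mitochondrial and top 50 genes (0.0132) and with voom on library totals (0.0423). The WT co-culture did not pass either (0.10 ± 0.08, adjusted p = 0.263), except after that rescaling (0.0414).

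Among the receptors for foreign chemicals, Nr1i2 (PXR) was detected and Nr1i3 (CAR) was near 0. Nr1i2 had 7.90, 7.02, 6.56 and 7.67 FPKM in the KO co-culture with CXCR2i, and 1.49, 1.32 and 1.43 FPKM in the KO co-culture. It had 6.13, 5.05 and 4.90 FPKM in the WT co-culture with CXCR2i, and 1.34, 1.32 and 1.29 FPKM in the WT co-culture. Hepatocytes alone gave 0.757, 1.28 and 0.862 FPKM. Both inhibitor groups were high and did not overlap, and the other groups were all under 1.5 FPKM. The rise with the inhibitor was 5.16-fold in the KO co-culture (log2 fold change 1.78 ± 0.09, adjusted p = 2.31e-10) and 4.07-fold in the WT co-culture (1.45 ± 0.10, adjusted p = 5.67e-09). Against hepatocytes alone the co-cultures were higher by 0.30 ± 0.10 (KO, adjusted p = 0.0137; 0.0691 without hepatocytes-alone replicate 1 and 0.0507 without replicate 3) and 0.25 ± 0.10 (WT, adjusted p = 0.0383), the second lost when only the libraries compared were fitted (0.105) and when any 1 of 5 libraries was left out, every WT library and hepatocytes-alone replicates 1 and 3 (up to 0.166). Nr1i3 had 3 fragments in KO co-culture with CXCR2i replicate 1, 4 in hepatocytes-alone replicate 1 and 0 in the other libraries. It overlaps the antisense gene Tomm40l over 4691 bases, and since the strand setting of the counting is not given in the sources used here, those few fragments cannot be assigned with certainty.

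Nr3c1, the glucocorticoid receptor gene, changed by small amounts. It had 23.0, 24.8, 24.6 and 25.5 FPKM in the KO co-culture with CXCR2i, and 18.8, 17.8 and 18.8 FPKM in the KO co-culture. It had 23.9, 21.5 and 24.1 FPKM in the WT co-culture with CXCR2i, and 20.6, 16.4 and 17.5 FPKM in the WT co-culture. Hepatocytes alone gave 21.2, 21.6 and 21.6 FPKM. The inhibitor groups lay above the co-cultures without it, with hepatocytes alone between and overlapping the WT co-culture with CXCR2i. The rise with the inhibitor was 1.33-fold in the KO co-culture (log2 fold change 0.39 ± 0.06, adjusted p = 7.32e-05) and 1.27-fold in the WT co-culture (0.33 ± 0.07, adjusted p = 0.000525). Without inhibitor it was lower than in hepatocytes alone by -0.21 ± 0.07 (KO, adjusted p = 0.0165) and -0.23 ± 0.07 (WT, adjusted p = 0.008). Both of these calls were lost under quantile normalization (adjusted p = 0.129 and 0.0806) and when values were rescaled without mitochondrial and top 50 genes (0.114 and 0.0889), and the KO call also without KO replicate 2 (0.0597).

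Set against hepatocytes alone, 4 of 9 tested receptors passed in the KO co-culture, 2 higher (Ppard and Nr1i2) and 2 lower (Nr1h4 and Nr3c1), where 61.5% of all genes passed, 30.3% higher and 31.2% lower. In the WT co-culture 6 passed, 4 higher (Ppara, Ppard, Pparg and Nr1i2) and 2 lower (Nr1h4 and Nr3c1), where 62% of all genes passed, 30.1% higher and 31.9% lower. With the inhibitor, 7 were higher and 1 lower in the KO co-culture (69.4% of all genes called, 33.3% higher and 36.1% lower) and 6 higher and 1 lower in the WT co-culture (66.8%, 32.1% higher and 34.7% lower). Nr0b2, which reached the filter only through the inhibitor groups, is counted among the higher ones in both. Of all genes called in that WT comparison 48.1% were higher, or 58.2% when values were rescaled without mitochondrial and top 50 genes. Nr3c1 accounts for the difference in count. For the KO co-culture with CXCR2i it stood at 0.18 ± 0.06 (limma, adjusted p = 0.0192, and 0.0554 without hepatocytes-alone replicate 1). For the WT co-culture with CXCR2i it stood at 0.10 ± 0.07 (adjusted p = 0.197). That WT value passed under quantile normalization (0.0358), after the rescaling (0.0487) and with voom on library totals (0.0154). The difference in count thus depends on the setting. Nr1h4 was called lower in the KO and WT co-cultures and higher once these held the inhibitor. All 4 comparisons share the same 3 libraries of hepatocytes alone.

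**Figure D2:**
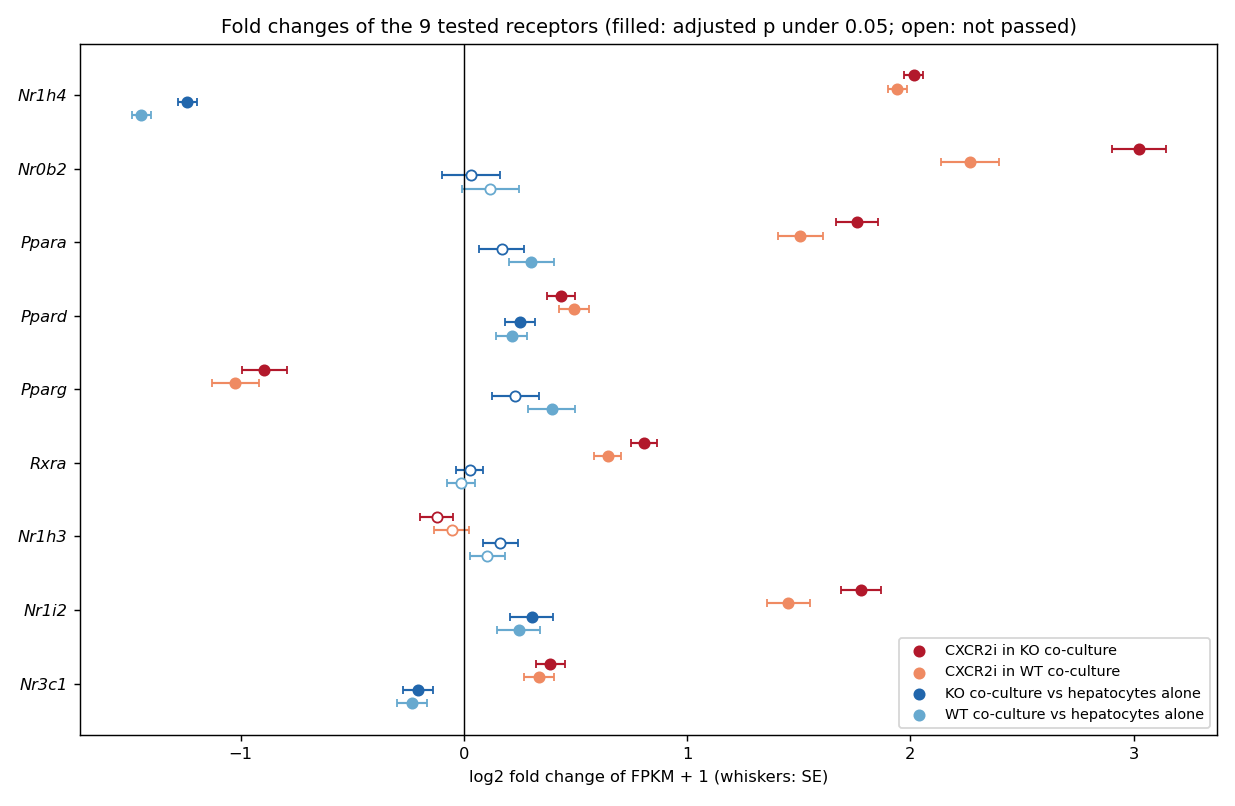
Log2 fold changes of FPKM + 1 (horizontal axis, whiskers SE) of the 9 tested receptors for the inhibitor in each co-culture and for each co-culture without inhibitor against hepatocytes alone. Inhibitor effects run from -1.02 for Pparg to 3.02 for Nr0b2, while effects of co-culture without inhibitor are at most 0.39 in size except for Nr1h4.

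Between cultures with KO and WT cancer cells, few of the receptors passed the test. Without inhibitor, 1 of 9 tested receptors passed, Nr1h4, at 15.1 ± 0.33 FPKM in the KO co-culture against 12.97 ± 0.72 FPKM in the WT co-culture (log2 fold change 0.21 ± 0.04, adjusted p = 0.0198, limma), where 2.99% of all genes passed, 1.65% higher. Of the 341 genes called, 55.1% were higher in the KO co-culture, or 43.8% after rescaling without mitochondrial and top 50 genes and 41.2% when only these libraries were fitted. The Nr1h4 call was lost in that fit (adjusted p = 0.325), with voom on recovered fragments (0.0878 and 0.0889 under 2 scalings) and without KO replicate 1 (0.0623), KO replicate 2 (0.0776) or WT replicate 2 (0.069). With inhibitor, 3 of 9 passed, where 2.31% of all genes passed, 1.66% higher. Nr0b2 was 1.71-fold higher in the KO co-culture with CXCR2i (0.67 ± 0.12, adjusted p = 0.00848), Nr1i2 1.36-fold (0.38 ± 0.09, adjusted p = 0.04) and Nr1h4 1.22-fold (0.28 ± 0.04, adjusted p = 0.00223), and in each of the 3 the KO libraries lay above the WT libraries, as they did for 8.42% of all genes. The Nr0b2 call was lost with a pseudocount of 0.1 (adjusted p = 0.571) and without WT co-culture with CXCR2i replicate 1 (0.0515). The Nr1i2 call was lost with that pseudocount (0.155), without the filter on low values (0.0909) and when only these libraries were fitted (0.0679). It was also lost without any 1 of 5 libraries, replicates 1, 2 and 4 of the KO and 2 and 3 of the WT group (up to 0.186).

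Rxra, at 24.3 ± 1.1 FPKM in the KO co-culture with CXCR2i and 20.98 ± 0.48 FPKM in the WT co-culture with CXCR2i, did not pass (0.20 ± 0.06, adjusted p = 0.108; 0.0439 after rescaling and 0.0444 to 0.0475 with voom). The other 5 tested receptors overlapped between these groups. The difference of the inhibitor effects, KO minus WT, passed for 0 of 9 tested receptors in limma, with 2 at an unadjusted p under 0.05, and for 0 with voom, also unadjusted, where 0.816% of all genes passed. Of the 93 genes called, 65.6% were positive, or 77.3% after rescaling. For Nr0b2 that difference was 0.76 ± 0.18 (95% interval 0.38 to 1.14, adjusted p = 0.0695) and for Nr1i2 0.33 ± 0.13 (0.04 to 0.61, adjusted p = 0.366). For Nr1h4 it was 0.07 ± 0.06 (-0.05 to 0.20, adjusted p = 0.74).

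The glucocorticoid receptor's listed target genes had the highest median of the target lists with the inhibitor, while the receptor gene itself moved little. Of 16 tested members of a list of 20, 14 rose and 2 fell in each co-culture, where 34.8% (KO) and 33.5% (WT) of all genes rose and 34.7% and 33% fell. The median log2 fold change was 2.18 in both, against -0.01 for all genes tested. It was as high for the 8 tested hepatocyte markers, Tat among them, at 2.24 (KO) and 2.19 (WT). Zbtb16 and Tat were among 3 of the 16 that reached the filter only through the inhibitor groups, against 3.26% of all genes tested. The rise of these 3 is a description, though they stand in the list's counts and medians. The filter left the direction open for the other 13, but the list was chosen with earlier results of these data known. Its counts are thus a description. Zbtb16, a glucocorticoid-induced zinc-finger factor, had 18 ± 0.98 FPKM in the KO co-culture with CXCR2i and 0.697 ± 0.11 in the KO co-culture (log2 fold change 3.48 ± 0.06), and 15.2 ± 0.57 in the WT co-culture with CXCR2i and 0.361 ± 0.077 in the WT co-culture (3.58 ± 0.07). Tat, which degrades tyrosine and is also a hepatocyte marker here, rose by 3.72 ± 0.08 in the KO and 3.27 ± 0.09 in the WT co-culture. Tsc22d3 (GILZ) rose by 2.93 ± 0.07 in the KO and 2.89 ± 0.07 in the WT co-culture, and the phosphatase gene Dusp1 by 3.08 ± 0.06 in the KO and 2.75 ± 0.06 in the WT co-culture. Without inhibitor, 11 of the 16 were lower than in hepatocytes alone in each co-culture, where 31.2% (KO) and 31.9% (WT) of all genes were, with medians of -0.42 in both. Dusp1 had 4.94 ± 0.58 FPKM in the KO co-culture and 4.46 ± 0.22 in the WT co-culture, against 50.8 ± 0.61 in hepatocytes alone. The receptor's chaperone list moved less: 4 of 8 rose and 3 fell in the KO co-culture, 4 rose and 2 fell in the WT co-culture, where 69.5% and 66.6% of all genes were called, and Fkbp5, a co-chaperone that is itself a glucocorticoid target and stands in both lists, rose by 2.14 ± 0.04 in each.

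Most tested genes of the PPAR alpha target list were higher with the inhibitor, as Ppara was. Of 21 tested members of a list of 24, 20 rose and 1 fell in the KO co-culture, and 17 rose and 1 fell in the WT co-culture, where 34.8% and 33.5% of all genes rose. The medians were 0.42 and 0.37, against -0.01 for all genes tested in both. Of the 21, 4 reached the filter only through the inhibitor groups, Pdk4, Creb3l3 and Fabp1 among them, against 3.26% of all genes tested. Their rise is a description, though they stand in the list's counts and medians. The filter left the direction open for the other 17, but the list was chosen with earlier results of these data known. Its counts are thus a description. Pdk4, which restrains glucose oxidation, had 8.75 ± 0.67 FPKM in the KO co-culture with CXCR2i and 0.177 ± 0.1 in the KO co-culture, and 6.96 ± 0.72 in the WT co-culture with CXCR2i and 0.117 ± 0.057 in the WT co-culture (log2 fold changes 3.05 ± 0.08 and 2.83 ± 0.09). Creb3l3, a lipid-regulating transcription factor of liver, rose by 1.88 ± 0.11 and 1.43 ± 0.12. Cpt1a, the gate of fatty acid entry into mitochondria, rose by 1.45 ± 0.04 in the WT co-culture, and the fatty acid binding protein gene Fabp1 by 2.14 ± 0.26 in the KO co-culture. Without inhibitor, 3 members were higher and 12 lower in the KO co-culture than in hepatocytes alone, and 3 higher and 13 lower in the WT co-culture, where 31.2% and 31.9% of all genes were lower, with medians of -0.20 in both; Acadl, an acyl-CoA dehydrogenase, had 48.9 ± 1.3 FPKM in the KO co-culture and 44.2 ± 2.04 in the WT co-culture, against 117 ± 0.93 in hepatocytes alone.

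Of 9 listed targets of PPAR gamma, 3 passed the filter, Plin4 and Cd36 only through the inhibitor groups, and no direction of the list can be read from them. The 3 were higher with the inhibitor: the lipid droplet gene Plin4 by 1.85 ± 0.08 in the KO and 1.89 ± 0.08 in the WT co-culture, the fatty acid translocase gene Cd36 by 2.19 ± 0.08 and 1.73 ± 0.08, and the lipoprotein lipase gene Lpl by 1.23 ± 0.06 and 1.35 ± 0.06. Cd36 had 3.71 ± 0.30 FPKM in the KO co-culture with CXCR2i and 2.34 ± 0.38 in the WT co-culture with CXCR2i, against 0.0334 ± 0.011 in the KO co-culture, 0.00490 ± 0.0085 in the WT co-culture and 0 in all 3 libraries of hepatocytes alone. Cidea, a lipid droplet gene that was not tested, had 0 fragments in both groups with the inhibitor, 9 in the KO co-culture, 21 in the WT co-culture and 3 in hepatocytes alone.

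Of 14 listed targets of FXR and SHP, 4 passed the filter and all 4 fell with the inhibitor in both co-cultures, where 34.7% (KO) and 33% (WT) of all genes fell. Their medians were -0.42 (KO) and -0.58 (WT). With so few of the list tested, and with genes of bile acid synthesis and transport listed together, no direction of the whole list can be read from them. Klb, the co-receptor for FGF15 signalling, fell by 0.91 ± 0.07 in the KO and 0.91 ± 0.08 in the WT co-culture, on the log2 scale. The canalicular transporter gene Abcc2, which also stands in the PXR and CAR list, fell by 0.48 ± 0.05 and 0.61 ± 0.05. The receptor gene Fgfr4 fell by 0.36 ± 0.05 and 0.55 ± 0.06, and Cyp27a1, which opens the alternative bile acid pathway, by 0.28 ± 0.07 and 0.41 ± 0.07. Several of the 10 that were not tested had more fragments with the inhibitor, all at low counts. Slc51a did not, with 3 and 0 fragments in the KO and WT co-cultures with CXCR2i. It had 10 and 0 in the KO and WT co-cultures, and 2 in hepatocytes alone. Fragments are summed without scaling for depth, over 4 libraries in the KO co-culture with CXCR2i and 3 in each other group. Abcb11, the bile salt export pump, had 20 and 15 fragments in all in the KO and WT co-cultures with CXCR2i, 6 and 0 in the KO and WT co-cultures, and 2 in hepatocytes alone. Cyp7a1, the rate-limiting enzyme of bile acid synthesis, had 1 fragment over all 16 libraries. Slc51b, a bile acid efflux subunit, had 42 and 40 fragments in the KO and WT co-cultures with CXCR2i, 0 and 1 in the KO and WT co-cultures, and 20 in hepatocytes alone. Baat, which conjugates bile acids, had 107 and 29 fragments in the KO and WT co-cultures with CXCR2i, 4 and 13 in the KO and WT co-cultures, and 10 in hepatocytes alone. Slc10a1, the bile acid uptake transporter, had 44 and 10 fragments in the KO and WT co-cultures with CXCR2i. It had 4 in each co-culture without inhibitor, and 2 in hepatocytes alone. In mean FPKM, the KO and WT co-cultures with CXCR2i had 0.0486 and 0.0576 for Abcb11 and 0.718 and 1.15 for Slc51b. They had 0.698 and 0.301 for Baat, and 0.265 and 0.0906 for Slc10a1.

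Of 14 listed LXR targets, 8 were tested, and 5 rose and 3 fell with the inhibitor in each co-culture, where 69.5% (KO) and 66.6% (WT) of all genes were called, while Nr1h3 did not pass. Mlxipl, the gene for the carbohydrate-response factor ChREBP, rose by 2.69 ± 0.06 in the KO and 2.31 ± 0.06 in the WT co-culture, the desaturase gene Scd1 by 1.49 ± 0.04 and 1.56 ± 0.04, and the cholesterol exporter gene Abca1 by 0.96 ± 0.08 and 1.08 ± 0.09. Smpdl3a, a phosphodiesterase gene, fell by 1.05 ± 0.11 and 0.97 ± 0.12. The list's medians were 0.55 (KO) and 0.48 (WT). Scd1 had 14.3 ± 0.77 FPKM in the KO co-culture and 13.1 ± 0.49 in the WT co-culture, against 27.6 ± 1.2 in hepatocytes alone, where both differences passed.

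Of 19 listed PXR and CAR targets, 11 were tested, and 9 rose and 1 fell with the inhibitor in each co-culture, where 34.8% (KO) and 33.5% (WT) of all genes rose. The medians were 1.45 (KO) and 1.26 (WT). Ces2a and Cyp3a11 reached the filter only through the inhibitor groups, as 3.26% of all genes tested did. Their rise is a description, though they stand in the list's counts and medians. The filter left the direction open for the other 9, but the list was chosen with earlier results of these data known. Its counts are thus a description. Aldh1a1, a retinaldehyde dehydrogenase, had 162 ± 7.1 FPKM in the KO co-culture with CXCR2i and 7.28 ± 0.57 in the KO co-culture, and 128 ± 2.1 in the WT co-culture with CXCR2i and 6.81 ± 0.83 in the WT co-culture, against 46.6 ± 1.7 in hepatocytes alone. The carboxylesterase gene Ces2a rose by 2.30 ± 0.08 in the KO and 1.82 ± 0.09 in the WT co-culture, the stress gene Gadd45b by 2.28 ± 0.11 and 2.20 ± 0.12, and the drug-metabolising Cyp3a11 by 2.18 ± 0.08 and 1.71 ± 0.08. Ces2a and Cyp3a11 have close paralogues, so their counts are uncertain. The classical CAR target Cyp2b10 had 12 and 3 fragments in all in the KO and WT co-cultures with CXCR2i. It had 4 and 0 in the KO and WT co-cultures, and 0 in hepatocytes alone. These unscaled sums cover 4 libraries in the KO co-culture with CXCR2i and 3 in each other group. Of the 18 coactivators and corepressors, 16 were tested, and 9 rose and 3 fell in the KO co-culture, and 10 rose and 3 fell in the WT co-culture, near the 69.5% and 66.6% of all genes called. The corepressor gene Nrip1 fell by 0.95 ± 0.05 and 0.85 ± 0.06, and the coactivator gene Ncoa1 by 0.75 ± 0.07 and 0.82 ± 0.08.

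**Figure D3:**
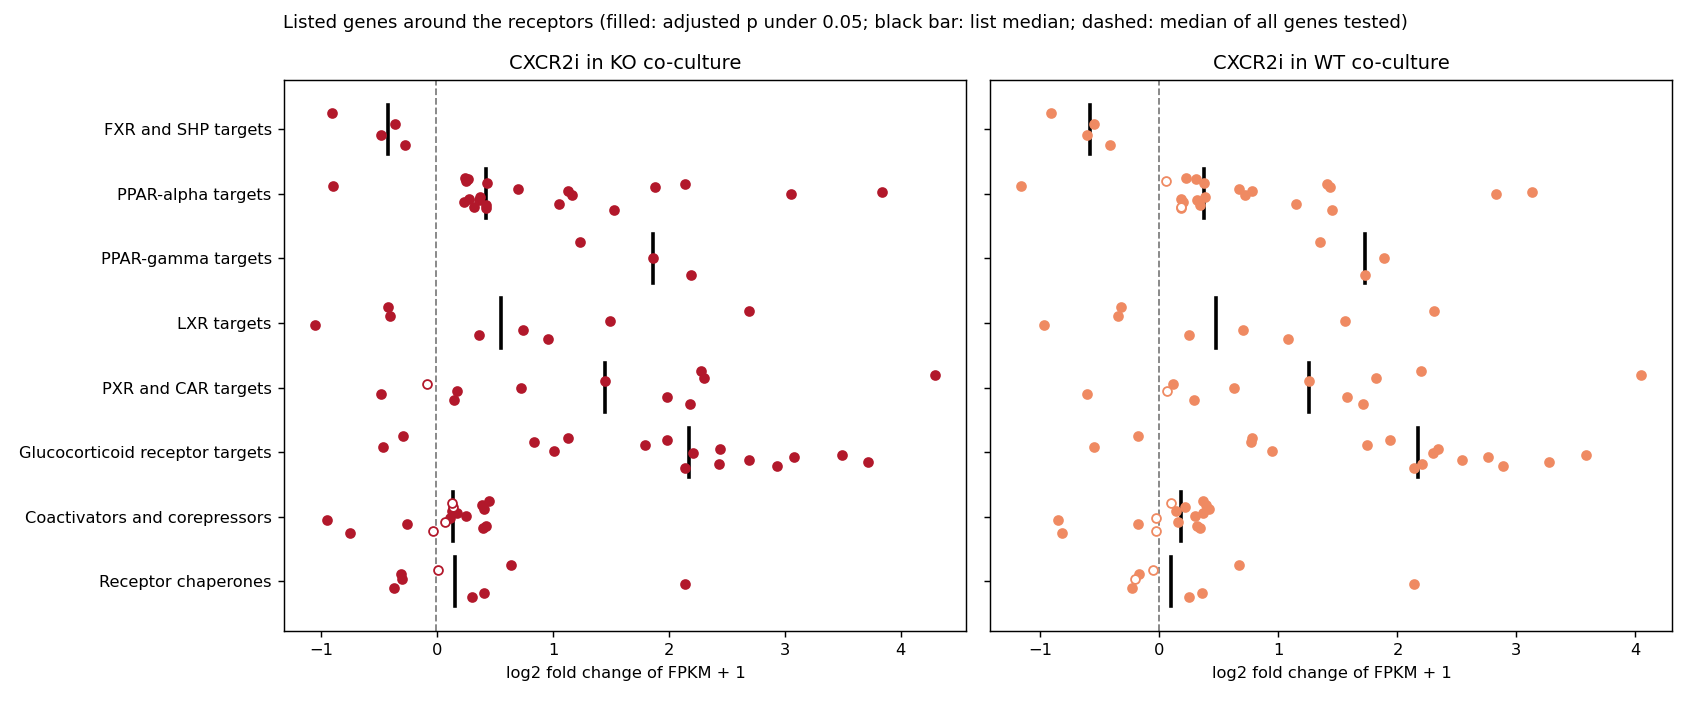
Log2 fold changes of FPKM + 1 with the inhibitor, KO co-culture left and WT co-culture right, for the tested genes of 8 lists; black bars are list medians and the dashed line the median of all genes tested. The glucocorticoid receptor targets have the highest median, 2.18 in both, and the 4 tested targets of FXR and SHP all lie below 0.

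Within the 49 nuclear receptor genes of the mouse list, 30 were tested and 8 were at 0 in every library. Nr1h4 ranked second by mean FPKM over the 16 libraries, at 38.1, after Hnf4a, a constitutive regulator of hepatocyte genes, at 57.2. Nr3c1 ranked 7th, Rxra 9th, Nr1h3 11th, Ppard 20th, Pparg 22nd, Ppara 23rd, Nr1i2 24th, Nr0b2 26th and Nr1i3 40th. With the inhibitor, 15 of the 30 rose and 9 fell in the KO co-culture, and 14 rose and 9 fell in the WT co-culture, where 69.5% and 66.6% of all genes were called, with medians of 0.19 and 0.13. In both co-cultures Nr0b2, Nr1h4, Nr1i2 and Ppara had the largest fold changes of the 30 on this scale. Of the 30, 2 reached the filter only through the inhibitor groups, Nr0b2 among them, and they stand in these counts and medians. The family's medians against hepatocytes alone were 0.16 in the KO and 0.11 in the WT co-culture. Hnf4a alone in the family differed in its inhibitor effect between the cultures (0.37 ± 0.06, adjusted p = 0.0103), with 73.8 ± 1.2 FPKM in the KO co-culture with CXCR2i, 69.1 ± 1.7 in the WT co-culture with CXCR2i, 41.0 ± 1.9 in the KO co-culture and 49.8 ± 2.8 in the WT co-culture.

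**Figure D4:**
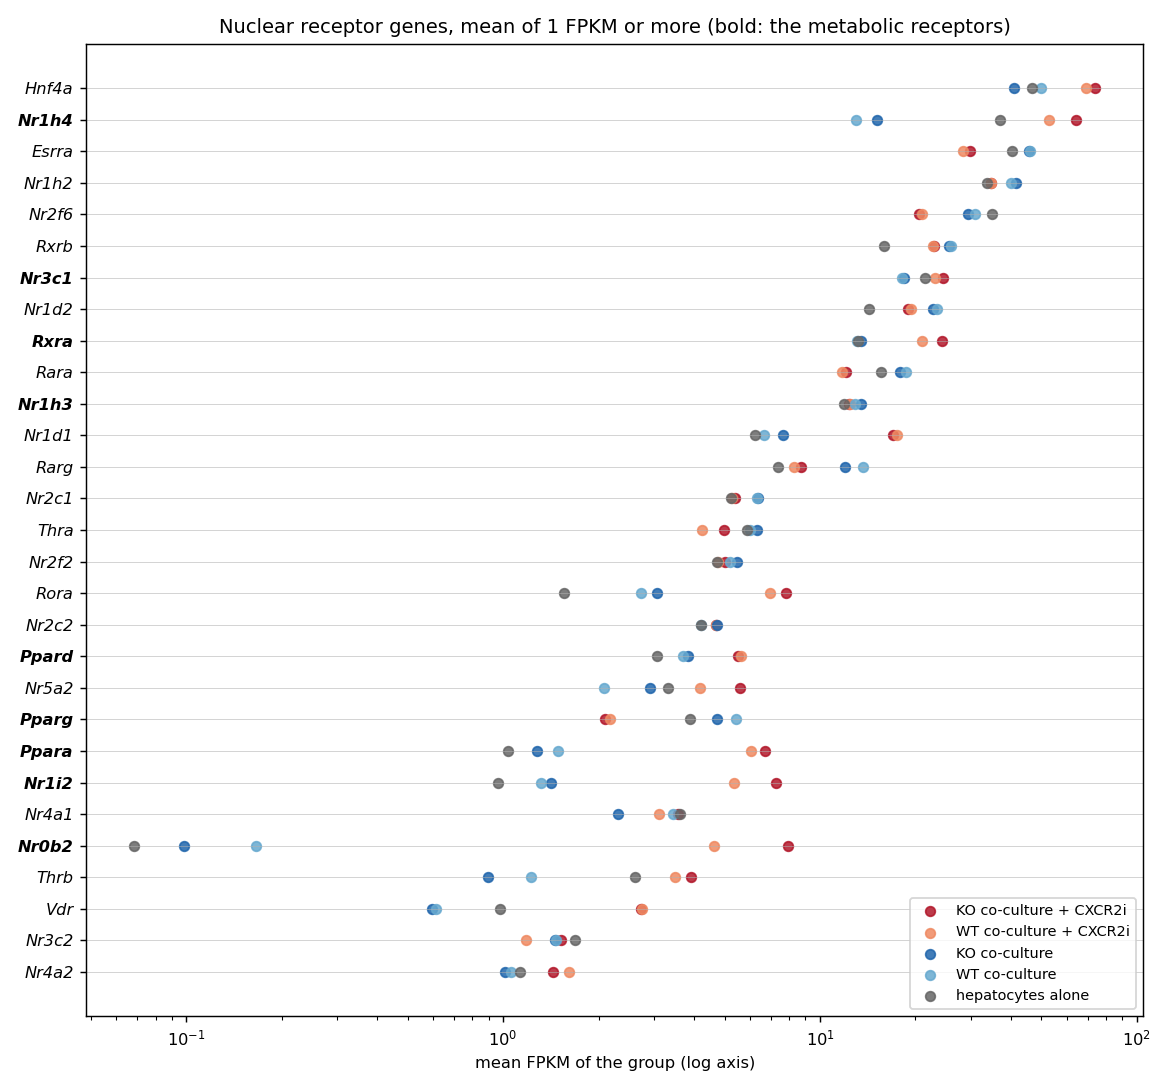
Mean FPKM per group (horizontal log axis) of 29 of the 30 nuclear receptor genes that passed the filter, ordered by mean over all libraries, with the metabolic receptors in bold. Nr0b2 spans the widest range, 0.0685 FPKM in hepatocytes alone to 7.91 FPKM in the KO co-culture with CXCR2i, and Nr1h3 the narrowest of the bold ones.

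Genes whose log2(FPKM + 1) ran closest to each tested receptor over the 16 libraries are given as a description, since the libraries fall into groups and share them. For Nr1h4 they were H6pd, Aldh3a2 and Aldh1a1 (Pearson r 0.997, 0.996 and 0.995), for Nr0b2 Ptprf and Cyp4f14 (0.994 and 0.993), and for Ppara Sqor, Ces2g and Trim30d (0.992 for the first). For Nr1i2 they were Amy1, Ces2a and Sult1d1 (0.993, 0.990 and 0.990), and for Rxra Ergic1, Gjb1 and Cyp4b1 (0.990, 0.989 and 0.989). Ppard ran closest to Slc25a22, Psmf1 and Ngef (0.980 for the first), Pparg to Poglut1, Map1b and Cdc42se2 (0.979 for the first), Nr3c1 to Atrx, Ltn1 and Fam120a (0.972 for the first), and Nr1h3 to Dnlz, Rpl36 and Cuta (0.908 for the first). Such values are common here: 393 genes had an r over 0.95 with Nr1h4, 440 with Nr0b2, 22 with Nr3c1 and 0 with Nr1h3. Among the receptors themselves, r was highest for Nr0b2 with Rxra (0.981) and lowest for Nr1h4 with Pparg (-0.922).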

How the data were processed

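The 16 RNA samples were purified on RNeasy mini columns and made into libraries by Novogene's protocol, per the labels. The submitters' processing notes name HISAT2 with the builds GRCm38 and mm10; no source used here gives its version, the counter, the annotation or the strand setting. The authors deposited FPKM per gene and library, with no pooling. FPKM multiplied by the deposited gene length gave whole fragments (100% of values within 0.1 of a whole number), 15 to 21.3 M per library; PCR duplicates cannot be told from molecules. Recovered fragments summed to 0.971 to 1.03 times the divisor the authors used, as group means. Mitochondrial fragments made up 1.86% to 2.11% of libraries with the inhibitor and 3.25% to 4.57% of those without.

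FPKM was used as deposited, as log2(FPKM + 1), for genes with a mean of at least 1 FPKM (11395 of 54532). limma 3.58.1 (R 4.3.3) estimated group means from the 16 libraries together (11 residual degrees of freedom, intensity trend) and tested 9 comparisons two-sided; p-values were adjusted by Benjamini-Hochberg across the tested genes, with calls under 0.05. The fit was tested on simulated data. Alternatives were a pseudocount of 0.1, no filter, only the libraries compared, quantile normalization, rescaling without mitochondrial and top 50 genes, a replicate block, voom (limma) on recovered fragments with 2 scalings, and leaving out each library. Replicate numbers were not shown to pair the samples. Promoter windows are RefSeq's for GRCm38.p6, trimmed to the 250 bases before each start; Nr3c1 was left out of the sequences. All 10 receptors are described in every comparison. Of each list, up to 4 genes past the threshold with the largest fold change are named. Further genes were chosen after their values were seen (Abcb11, Cyp7a1, Slc51a, Slc51b, Baat, Slc10a1, Cidea, Cyp2b10, Krt19, Krt7, Msln, Sox9, Onecut2, Epcam, Ptprc, Csf1r, Lyz2, Nr1h2, Rxrb). The receptors and gene lists were chosen with earlier results of these data known. Some genes that this rule names are not reported here. Figures were drawn with matplotlib 3.10.9.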

Additional observations from a re-analysis of the deposited data

Results flagged for a closer look

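Nr1i3 in the KO co-culture with CXCR2i was the only 1 of 10 receptor groups of 4 libraries in which a library stood apart by Dixon's 95% criterion, with a gap that made up 1 of the group's whole range. Replicate 1 held 3 fragments (0.0311 FPKM) and the other libraries 0. Any group with a single library above 0 gives this ratio of 1, whatever its value. The usual chance rate of about 1 in 20 groups does not apply to such counts at the floor.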

How the results depend on the processing

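Of 1224 values of the receptors recomputed under the alternatives, 1141 kept direction and side of the threshold, 39 lost the call, 16 gained one and 28 changed sign, all 28 of them for values that had not passed; of 2448 list counts, 134 moved by more than 1.5 times. The 7 rises and the fall of Pparg with the inhibitor kept their calls in both co-cultures under every alternative. Of the 7, the rise of Nr0b2 was not open, since it reached the filter only through the inhibitor groups. Between KO and WT co-cultures without inhibitor, genes called were 341, but 17 when only these libraries were fitted, and 157 to 398 leaving out 1 library (fewest without KO replicate 3); receptors called were 1, but 0 in that fit and with voom under both scalings, and 0 to 1 leaving out 1 library. With inhibitor, receptors called were 3, but 1 with a pseudocount of 0.1, and genes called were 263, but 123 to 221 leaving out 1 library (fewest without WT co-culture with CXCR2i replicate 1). For the difference of the inhibitor effects, genes called were 93, but 55 with no filter, 41 when only these libraries were fitted, 34 with the replicate block, and 31 to 120 leaving out 1 library (fewest without KO replicate 1). The cause was not tested; leaving out libraries leaves fewer samples.

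Signs changed as follows, on the log2 scale. Rxra in the WT co-culture against hepatocytes alone became 0.0209 (quantile), 0.0489 (rescaled) and 0.0288 (voom, library totals), and -0.0522 to 0.0643 leaving out 1 library. Nr0b2 in the KO co-culture against hepatocytes alone became -0.0677 (quantile), -0.118 and -0.155 (voom), and -0.0644 to 0.0972 leaving out 1 library. With the replicate block, Ppard and Nr1h3 became 0.0141 and 0.0286 in the KO against the WT co-culture with CXCR2i. Leaving out 1 library gave -0.0138 to 0.0676 for Rxra in the KO co-culture against hepatocytes alone, and against the same -0.0003 to 0.0784 and -0.0342 to 0.0985 for Nr1h3 in the KO and WT co-cultures with CXCR2i. In the KO against the WT co-culture it gave -0.0179 to 0.0926 (Ppard), -0.0388 to 0.0797 (Rxra), -0.018 to 0.111 (Nr1h3) and -0.0393 to 0.115 (Nr3c1). With inhibitor it gave -0.0488 to 0.0141 (Ppard), -0.13 to 0.0656 (Pparg) and -0.0563 to 0.0764 (Nr1h3). For the difference of inhibitor effects it gave -0.118 to 0.018 (Nr1h3) and -0.0347 to 0.119 (Nr3c1). Same-numbered replicates did not deviate together (30 pairs, correlations -0.3 to 0.27, median 0.01), so the block result is given only here; with it Nr1i2 no longer passed between KO and WT co-cultures with CXCR2i (adjusted p = 0.123, limma), and it leaves out KO co-culture with CXCR2i replicate 4. Depth limits Nr0b2 without inhibitor and Nr1i3 throughout.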
